A study of Mus musculus with 12 samples.

Results

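The acinar genes described here are 34 genes of the exocrine pancreas, chosen by symbol from the merged table of gene counts, of 24956 symbols analysed in all. They encode digestive enzymes and their proenzymes, proteins of the secretory granule, and a few proteins of the acinar endoplasmic reticulum and of acinar metabolism. All 34 were present in the table, and 32 had enough counts to be tested. RNA was measured in 12 tumours of PDA.69, a single pancreatic ductal adenocarcinoma line that comes from the KPC mouse, an engineered strain that develops this cancer, and that the labels call T cell-low. Of these, 6 had WT hosts and 6 had hosts of the genotype Alb-Cre+/+ Stat3f/f, called Alb-Cre Stat3f/f from here on. Such hosts express Cre recombinase from the albumin promoter, active in hepatocytes, so that the floxed Stat3 gene, encoding a cytokine-responsive transcription factor, is deleted in liver cells of the host and not in the PDA.69 cells. The labels name no treatment of either group and give neither host age nor sex nor the site of tumour growth. RNA was scraped from slides of formalin-fixed, paraffin-embedded tumour tissue, and the libraries read the 3' ends of polyadenylated transcripts, so that a transcript gives about the same number of reads whatever its length.

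Acinar cells make up most of the pancreas. They synthesise digestive enzymes in an extensive rough endoplasmic reticulum, pack them into zymogen granules and release them into the ducts when food arrives. Proteases are stored as inactive zymogens: trypsinogen is cut to trypsin in the gut, and trypsin in turn activates chymotrypsinogen, proelastases and procarboxypeptidases, whereas amylase and pancreatic lipase are secreted in active form. The transcription factor complex PTF1, built on Ptf1a with Rbpjl or Rbpj and an E protein, binds paired sequence motifs ahead of many of these genes, and ductal carcinoma cells express few or none of them.

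The 5' flanks of these genes show what they share beyond their function. RefSeq promoter sequences (GRCm38.p6) were matched by symbol for 28 of the 34 genes, with 29 start sites, and the 250 bases before each start were searched on both strands for the E-box CACCTG, whose reverse complement is spelled CAGGTG, and for the second PTF1 element TTTCCC, whose reverse complement is spelled GGGAAA. The elements can overlap by 1 base, and an overlapping pair was not counted as a pair. An E-box of this form was present in 18 of the 29 (62.1%), against 17.2% of 32851 promoter windows of the same length. TTTCCC was present in 8 (27.6%), against 21.9% of all promoters. Both elements lay within 30 bases of each other in 4 (13.8%), against 0.95% of all promoters (312). Several of these promoters belong to recent gene duplicates and are not independent, and a match describes the letters, not a bound site. The next sequences are shown because they hold the paired elements (Cela1 and Cel) or carry E-box and TTTCCC elements farther apart (Prss2), and each runs 5' to 3' on the gene's own strand with the motifs in capitals. Cela1, chymotrypsin-like elastase 1, lies on the minus strand and its window is chr15:100687921-100688170. The window of Cel, which encodes bile salt-dependent carboxyl ester lipase and is also on the minus strand, is chr2:28563404-28563653. For Prss2, a major trypsinogen gene on the plus strand, it is chr6:41521526-41521775.
Cela1: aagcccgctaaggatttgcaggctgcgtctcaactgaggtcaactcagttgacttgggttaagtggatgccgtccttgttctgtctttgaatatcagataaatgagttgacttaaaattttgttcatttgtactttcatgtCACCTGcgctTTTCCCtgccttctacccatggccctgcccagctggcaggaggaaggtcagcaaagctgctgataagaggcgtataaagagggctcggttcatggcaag
Cel: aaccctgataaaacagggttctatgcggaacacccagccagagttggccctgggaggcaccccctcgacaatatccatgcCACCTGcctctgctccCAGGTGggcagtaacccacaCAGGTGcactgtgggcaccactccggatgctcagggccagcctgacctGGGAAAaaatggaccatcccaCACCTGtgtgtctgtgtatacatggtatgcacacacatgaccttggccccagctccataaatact
Prss2: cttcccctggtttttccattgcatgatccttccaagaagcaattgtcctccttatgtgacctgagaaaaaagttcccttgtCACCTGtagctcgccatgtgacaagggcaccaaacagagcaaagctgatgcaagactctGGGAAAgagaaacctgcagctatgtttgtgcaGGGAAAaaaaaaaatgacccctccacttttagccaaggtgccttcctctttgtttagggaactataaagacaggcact
In Cela1 the paired elements are 4 bases apart, and in Cel the nearest pair is 15 bases apart beside 3 further E-boxes. The other promoters with the pair were those of Cela3a and of Prss1, which yielded few counts.

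The 2 most abundant of the 34 acinar genes in these tumours did not carry this E-box in the same window, and their promoters are shown for contrast. Ctrb1, encoding the chymotrypsinogen B precursor, was the first of the 34 by counts, and its minus-strand window is chr8:111691011-111691260. Rnase1, encoding the secreted pancreatic ribonuclease, was the next, and its minus-strand window is chr14:51146768-51147017.
Ctrb1: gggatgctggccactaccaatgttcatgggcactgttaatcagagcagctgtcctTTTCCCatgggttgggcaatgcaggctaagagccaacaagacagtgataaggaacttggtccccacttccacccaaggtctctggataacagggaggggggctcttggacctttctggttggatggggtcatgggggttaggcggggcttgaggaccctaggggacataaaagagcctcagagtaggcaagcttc
Rnase1: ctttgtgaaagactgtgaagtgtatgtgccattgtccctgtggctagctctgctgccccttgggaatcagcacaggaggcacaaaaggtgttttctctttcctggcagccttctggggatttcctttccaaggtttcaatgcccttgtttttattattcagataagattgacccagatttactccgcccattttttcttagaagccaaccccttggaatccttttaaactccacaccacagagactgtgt
The Ctrb1 window held 1 TTTCCC and the Rnase1 window neither motif. No match says only that these letters are not in the window.

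The libraries held 5691707 to 8085609 counts each, and 12856 genes passed the count filter. Whether every tumour had its own host mouse is not stated, so a p-value reflects only the variation among the sampled tumours, which may be technical. In CPM, the library-normalised count, Stat3 itself was at 257 ± 15.5 in WT tumours and at 258 ± 33.95 in those of Alb-Cre Stat3f/f hosts (n = 6 each, SD), and since the deletion is in host hepatocytes this does not test the labels. Markers of duct and ductal tumour, the labelled cell type, were present in every tumour with a summed level of 2897 to 3359 CPM in WT and 2154 to 2591 CPM in Alb-Cre Stat3f/f tumours. Of the 10 duct markers tested, 3 were lower in Alb-Cre Stat3f/f tumours (Krt7, Sox9 and Cftr), beside 0.747% of all genes. An unadjusted edgeR p under 0.05 was found for 5 of the 10, beside 19.4% of all genes. The tumours WT 6 and Alb-Cre Stat3f/f 5 stand apart in the acinar genes, each with the lowest share of its genotype.

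The acinar genes took from under 1% to over 40% of all counts in a tumour. In WT hosts the share was 9.78%, 3.09%, 4.99%, 2.36%, 22.7% and 0.591% in tumours 1 to 6. In Alb-Cre Stat3f/f hosts it was 27.1%, 41.3%, 43.9%, 29.6%, 0.830% and 13.5%. The ranges overlapped: 4 of the 6 Alb-Cre Stat3f/f shares exceeded the highest WT share, but tumour 5 lay below 5 of the 6 WT tumours. Mean shares were 7.25 ± 8.18% (SD, n = 6) for WT and 26.0 ± 16.5% (SD, n = 6) for Alb-Cre Stat3f/f, 18.8 percentage points apart, or 17.5 when WT 6 was left out and 23.8 when Alb-Cre Stat3f/f 5 was left out. The lowest and highest of the 12 tumours differed 74.3-fold, and the WT tumours alone 38.4-fold and the Alb-Cre Stat3f/f tumours alone 52.9-fold. Counting error was small beside this: the 95% Wilson interval was 0.584 to 0.597% for WT 6 and 43.87 to 43.94% for Alb-Cre Stat3f/f 3, which held 3550256 acinar counts. In bulk tissue, fewer acinar cells and less RNA per acinar cell cannot be told apart.

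**Figure D1:**
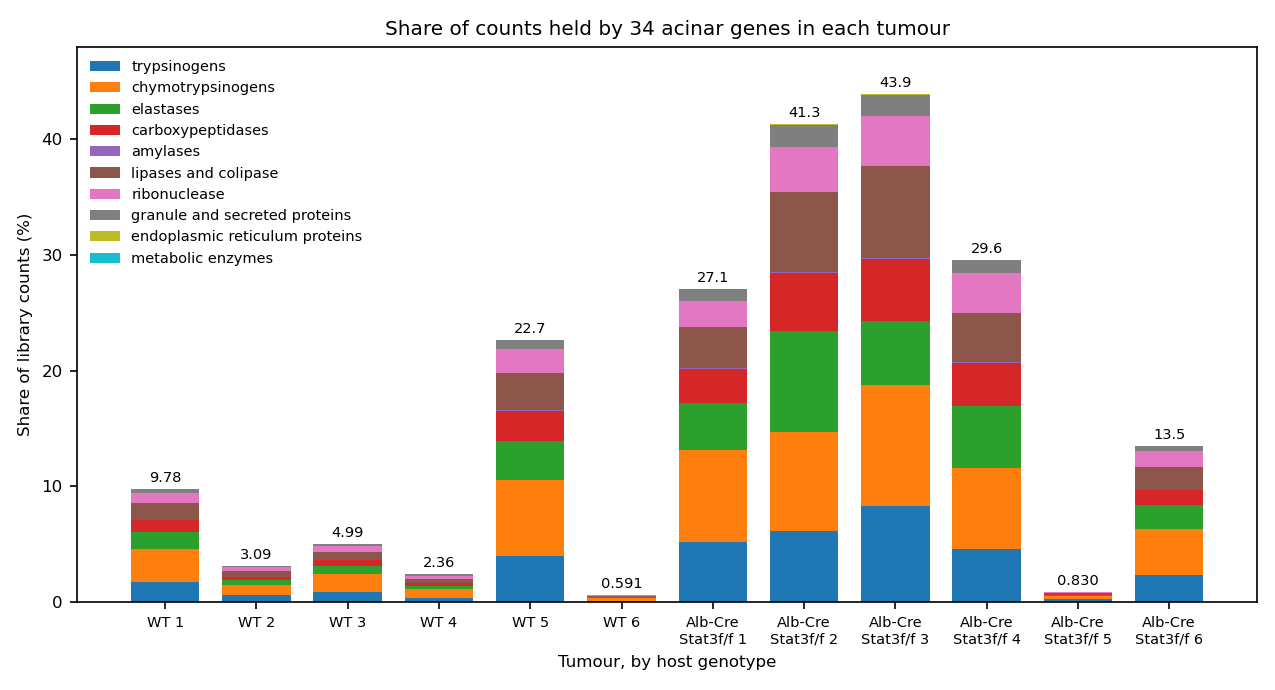
Stacked bars show the percent of each library's counts held by the 34 acinar genes, 1 bar per tumour, coloured by role, with the total above each bar. Alb-Cre Stat3f/f 3 reaches 43.9% and WT 6 stays at 0.591%, and Alb-Cre Stat3f/f 5 sits at 0.830%, among the WT bars.

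No acinar gene passed the threshold between host genotypes, although each of the 32 tested had a higher fitted level in Alb-Cre Stat3f/f tumours. With edgeR's quasi-likelihood test and Benjamini-Hochberg adjustment over all genes, 0 of the 32 were called at an adjusted p of 0.05, while 2.98% of all genes tested were called (2.23% higher and 0.747% lower). At an unadjusted p under 0.05 there were 17 of the 32, each higher, beside 11.5% of all genes higher and 19.4% in either direction. DESeq2 called 2 of the 32, Amy1 and Gnmt, a share near the 7.05% of all genes it called. It gave all 32 an unadjusted p under 0.05, beside 20.5% of all genes. The log2 fold changes (Alb-Cre Stat3f/f over WT) ran from 1.68 for Gatm to 2.86 for Pdia2 with a median of 2.45, where the median of all genes was -0.00. The median became 3.42 when WT 5 was left out, the widest move on leaving out 1 tumour. It was 2.20 when WT 6 was left out and 2.70 when Alb-Cre Stat3f/f 5 was left out. A fold change of at least 1.5 on the log2 scale was fitted for 32 of 32, beside 1.52% of all genes. The standard errors were wide, with a median of 1.11 on the log2 scale against 0.18 over all genes. The within-genotype SD of log2 CPM had a median of 2.32 for the acinar genes and 0.31 for all genes. Counted by tumours, 29 of the 32 had 4 of 6 Alb-Cre Stat3f/f tumours above every WT tumour and the other 3 had 3, beside 10.6% of all genes with at least 4. None of the 32 had all 6 above, beside 1.37% of all genes, and 16 had 1 Alb-Cre Stat3f/f tumour below every WT tumour. The acinar genes vary together from tumour to tumour, so these counts are not 32 separate observations.

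**Figure D2:**
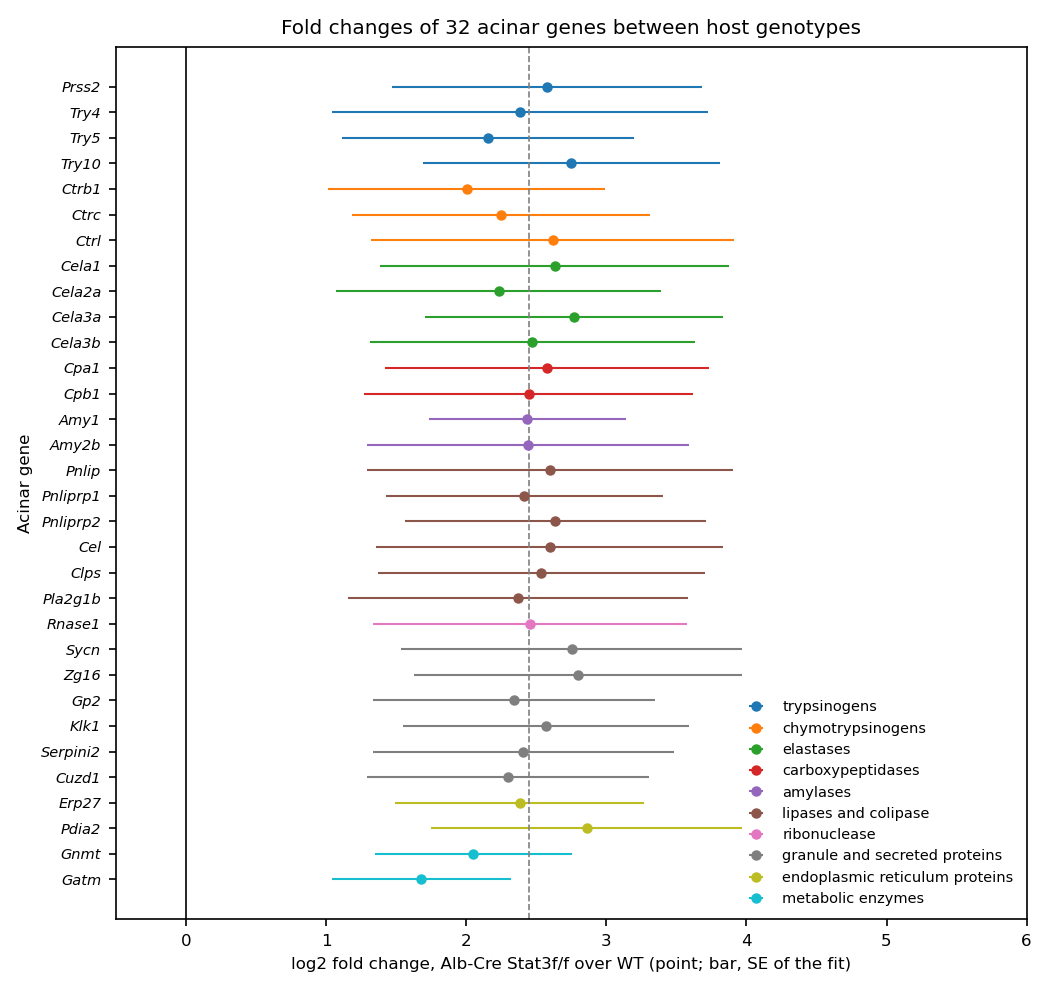
Points are log2 fold changes of the 32 tested acinar genes (Alb-Cre Stat3f/f over WT), bars are standard errors of the edgeR fit, colours are roles, the solid line marks 0 and the dashed line the median of 2.45. The points lie between 1.68 and 2.86 with overlapping bars.

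Trypsinogens start the activation cascade, and of the 6 among the acinar genes Prss2 had the most counts over the 12 libraries, though Try5 exceeded it in 4 tumours (WT 6 and Alb-Cre Stat3f/f 1, 5 and 6). Its level was 316, 2656 and 17060 CPM (lowest, median and highest) in WT and 761, 23035 and 78467 CPM in Alb-Cre Stat3f/f tumours. The groups overlapped, and the log2 fold change was 2.58 ± 1.11 (SE; edgeR adjusted p = 0.237). Try5, a neighbouring trypsinogen gene, had 324, 2027 and 15490 CPM in WT and 841, 19156 and 42879 CPM in Alb-Cre Stat3f/f tumours. For Try4, another gene of the locus, the WT values were 51.7, 987 and 9251 CPM and the Alb-Cre Stat3f/f values 44.7, 12980 and 25388 CPM. Try4 had the widest standard error of all 12856 genes (log2 fold change 2.38 ± 1.34, edgeR adjusted p = 0.370), and its lowest level of all was in Alb-Cre Stat3f/f 5. Try10 was far lower, with a highest value of 261 CPM. Prss1 and Prss3 had 53 and 89 counts in all 12 libraries together and failed the count filter. Prss1 was at 0 in 4 WT and 2 Alb-Cre Stat3f/f tumours, and Prss3 in 3 and 1, where a count of 0 allows up to 3 counts, or 0.355 to 0.701 CPM depending on the library. The trypsinogen genes lie together on chromosome 6 and their transcript ends are alike: of all 50-base stretches in the last 300 bases of annotated transcripts, 13.1% for Prss2, 28.4% for Try5, 44.6% for Try4, 59.4% for Try10, 62.5% for Prss1 and 78.1% for Prss3 also occur in another gene. How such reads were assigned is unknown, so the split between these genes is uncertain.

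Chymotrypsinogens cleave after aromatic residues once activated, and Ctrb1 exceeded every other acinar gene in 12 of 12 tumours. It had 1683, 9007 and 60403 CPM in WT and 2359, 73717 and 147640 CPM in Alb-Cre Stat3f/f tumours. This single gene took 0.213 to 8.52% of a library. Its log2 fold change of 2.00 ± 0.99 (edgeR adjusted p = 0.305) was among the smaller ones. Ctrl, the chymotrypsin-like protease, spread more: 92.0, 1176 and 9418 CPM in WT and 43.3, 14368 and 32385 CPM in Alb-Cre Stat3f/f tumours. The gene Ctrc, chymotrypsin C, had a highest level of 132 CPM, but its annotated span covers Cela2a (RefSeq lists it as a transcribed pseudogene), and 33.1% of its end stretches are those of Cela2a.

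The elastases and carboxypeptidases, which trim peptides within the chain and from its C-terminal end, are next. Cela1 had 223, 2565 and 19740 CPM in WT and 183, 33571 and 83634 CPM in Alb-Cre Stat3f/f tumours (log2 fold change 2.63 ± 1.25, edgeR adjusted p = 0.282). Cela3b reached 15334 CPM in WT and 49297 CPM in Alb-Cre Stat3f/f tumours, while its near copy Cela3a stayed under 161 CPM, with 37.5% of its end stretches shared with Cela3b. Cela2a had a highest value of 4071 CPM. In turn, 50% of the end stretches of Cela2a are also those of Ctrc, and 29.9% of those of Cela3b recur in Cela3a. The lowest Alb-Cre Stat3f/f tumour lay below every WT tumour for 3 of the 4 elastases. Cpa1, the carboxypeptidase that removes aromatic and aliphatic residues, had 303, 1987 and 16914 CPM in WT and 344, 25462 and 62084 CPM in Alb-Cre Stat3f/f tumours (log2 fold change 2.58 ± 1.16, edgeR adjusted p = 0.257). Cpb1, which removes basic residues, gave 178, 1348 and 10202 CPM in WT and 167, 13531 and 34782 CPM in Alb-Cre Stat3f/f tumours.

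Amylases, which cut starch, were low. Amy2b, of the pancreatic amylase cluster, had 15.4, 83.3 and 626 CPM in WT and 6.15, 887 and 2193 CPM in Alb-Cre Stat3f/f tumours. GENCODE release M21 lists this gene as an unprocessed pseudogene and RefSeq as protein coding, and 35.5% of its end stretches recur in the neighbouring Amy2a copies. The copies Amy2a2, Amy2a3, Amy2a4 and Amy2a5 had 0 counts in all 12 libraries, so that the level of pancreatic amylase as a whole cannot be read from this table. Amy1, best known as the salivary and liver form, had 3.47, 4.68 and 19.8 CPM in WT and 3.59, 35.8 and 83.6 CPM in Alb-Cre Stat3f/f tumours. It had the smallest adjusted p of the acinar genes (log2 fold change 2.44 ± 0.70, edgeR adjusted p = 0.0934). DESeq2 called it with an adjusted p of 0.00726, and edgeR called it when WT 5 was left out (adjusted p = 0.0452) and when Alb-Cre Stat3f/f 5 was left out (adjusted p = 0.0251).

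The lipid-digesting enzymes include Pnlip, pancreatic triglyceride lipase, and Clps, the colipase that anchors it to bile salt-covered droplets. Pnlip had 138, 1881 and 14979 CPM in WT and 71.8, 19156 and 56569 CPM in Alb-Cre Stat3f/f tumours, a 788-fold range over the 12 tumours (log2 fold change 2.60 ± 1.31, edgeR adjusted p = 0.313). Clps had 135, 1153 and 6981 CPM in WT and 112, 8612 and 29848 CPM in Alb-Cre Stat3f/f tumours. The groups overlapped for both, with Alb-Cre Stat3f/f 5 below every WT tumour. Cel reached 15353 CPM, Pla2g1b, the secreted phospholipase A2, 3913 CPM, and the lipase-related Pnliprp1 and Pnliprp2 28300 and 4253 CPM. All 6 genes had fold changes of 2.37 to 2.64 on the log2 scale (edgeR adjusted p = 0.214 to 0.322). Rnase1, which digests dietary RNA, was the next most abundant acinar gene after Ctrb1, with 301, 3434 and 22277 CPM in WT and 538, 33347 and 74467 CPM in Alb-Cre Stat3f/f tumours (log2 fold change 2.46 ± 1.12, edgeR adjusted p = 0.263).

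Transcripts for proteins of the granule itself had lower levels than those of the most abundant enzymes. The highest levels of Zg16 and Sycn still exceeded those of Cela2a, Pla2g1b and Amy2b. Sycn, syncollin, a protein of the inner granule membrane, had 45.05, 299.7 and 2649 CPM in WT and 43.8, 3778 and 12279 CPM in Alb-Cre Stat3f/f tumours. Zg16, a lectin of the zymogen granule, had 47.96, 405 and 2621 CPM in WT and 60.9, 4744 and 13393 CPM in Alb-Cre Stat3f/f tumours (log2 fold change 2.80 ± 1.17, edgeR adjusted p = 0.224). Gp2, the major granule membrane glycoprotein, reached 6347 CPM, and Klk1, tissue kallikrein, 2614 CPM. The highest values of Serpini2, a serine protease inhibitor, and of Cuzd1, a granule protein with CUB and zona pellucida domains, were 722 and 416 CPM. All 6 granule and secreted genes had an unadjusted p under 0.05, each higher, beside 11.5% of all genes higher and 19.4% in either direction. Their edgeR adjusted p-values were 0.202 to 0.254, and they vary together with the other acinar genes. Of the proteins that fold enzymes in the endoplasmic reticulum, Pdia2, a pancreas-enriched disulphide isomerase, had 3.74, 21.1 and 142 CPM in WT and 2.56, 252 and 772 CPM in Alb-Cre Stat3f/f tumours. Its log2 fold change of 2.86 ± 1.11 was the highest among the acinar genes (edgeR adjusted p = 0.194). Erp27, which binds disulphide isomerases, had 3.05, 15.4 and 78.8 CPM in WT and 8.33, 108 and 306 CPM in Alb-Cre Stat3f/f tumours.

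Gnmt, glycine N-methyltransferase, and Gatm, which makes the precursor of creatine, are abundant in acinar cells but are not secreted, and their SDs of log2 CPM over the 12 tumours (1.29 for Gatm and 1.36 for Gnmt) were the smallest among the 32 genes. Gatm had 8.07, 13.7 and 40.9 CPM in WT and 11.7, 50.2 and 147 CPM in Alb-Cre Stat3f/f tumours (log2 fold change 1.68 ± 0.64, edgeR adjusted p = 0.187). Gnmt had 1.78, 4.4 and 8.11 CPM in WT and 3.93, 9.41 and 49.3 CPM in Alb-Cre Stat3f/f tumours (log2 fold change 2.05 ± 0.70, edgeR adjusted p = 0.144). DESeq2 called Gnmt (adjusted p = 0.0320). Over the 12 tumours Gatm spanned an 18.3-fold range, Amy1 24.1-fold and Gnmt 27.7-fold, where Ctrl spanned 747-fold and Prss2 248-fold.

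The proportions between the enzymes were far steadier than their levels. The SD of log2 CPM over the 12 tumours had a median of 2.54 for the 32 genes, whereas the SD of the log2 ratio of a gene to the other acinar genes had a median of 0.42. This ratio SD was below the level SD for 30 of 32 genes, the exceptions being Gnmt (1.71) and Gatm (1.49), and it was under 0.5 for 21 genes. Pnliprp2 kept the steadiest proportion (0.21), followed by Cpa1 (0.25) and Rnase1 (0.25). Among genes outside the set with a mean of at least 5 CPM, the SD of the log2 ratio to the summed acinar level had a median of 2.52 over 10559 genes. That reference is the summed level and not the other acinar genes. A gene of constant level would have the SD of the acinar sum itself, so the 2.52 is no measure of how steady the proportions were. The sums share libraries and cells, so these SDs describe the 12 tumours and carry no test.

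**Figure D3:**
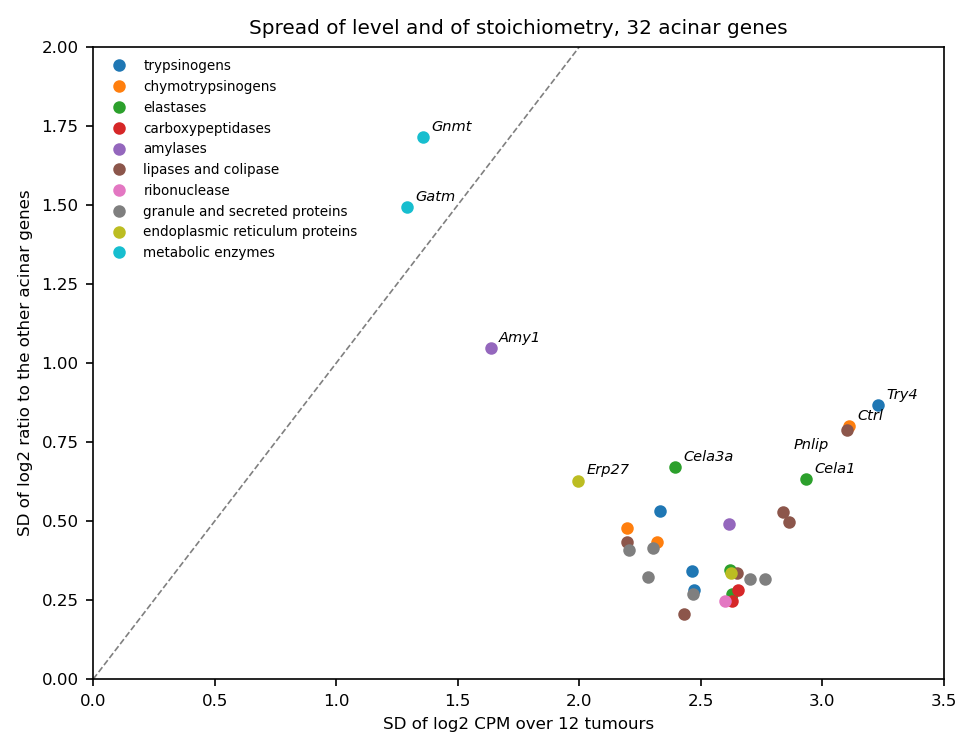
Each point is 1 of 32 acinar genes, with the SD of its log2 CPM over 12 tumours across and the SD of its log2 ratio to the other acinar genes upward; the dashed line marks equal SDs and genes above 0.6 are named. Only Gnmt and Gatm lie above the line, and Amy1 (1.05) comes next.

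A few genes made up most of the acinar counts. Ctrb1 held a median of 25.7% of them (15.9 to 36.5%), Rnase1 9.66%, Cela1 7.91%, Prss2 7.32% and Cpa1 6.43%. The 10 most abundant, which also include Try5, Cela3b, Pnlip, Cpb1 and Ctrl, held 81.1 to 85.7% in each tumour. By role, chymotrypsinogens took 20.6 to 38.1% of the acinar counts, trypsinogens 12.4 to 25.5%, lipases and colipase 10.3 to 18.1%, and elastases 6.87 to 21.0%. Carboxypeptidases took 7.89 to 12.6%, Rnase1 6.46 to 11.5%, and granule and secreted proteins 3.21 to 4.59%. The endoplasmic reticulum genes stayed at 0.0917 to 0.168% and the amylases at 0.151 to 0.405%. As a fold between lowest and highest share, the widest range belonged to Gnmt and Gatm together. They held 0.0133 to 0.0926% in 10 tumours but 0.345% in tumour WT 6 and 0.277% in tumour Alb-Cre Stat3f/f 5.

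The tumours with the smallest acinar share, WT 6 and Alb-Cre Stat3f/f 5, differed from the rest in make-up as well. Each gene's ratio to the other acinar genes was set against the median of the other 5 tumours of its genotype. Of the 32 genes, 13 were above that median in both tumours, 12 below it in both, and 7 on opposite sides. Those farthest below were Try4 (log2 differences of -1.62 in tumour WT 6 and -2.54 in tumour Alb-Cre Stat3f/f 5), Ctrl (-0.87 and -2.72), Pnlip (-1.0 and -2.60) and Cela1 (-0.79 and -1.66). Farthest above were Gatm (3.19 and 3.35), Gnmt (2.77 and 4.95) and Amy1 (2.67 and 2.36), and Ctrb1 was above by 0.71 and 1.25. The levels of Gatm, Gnmt and Amy1 themselves were not raised in these tumours. Gatm had 13.9 CPM in WT 6 and 11.7 CPM in Alb-Cre Stat3f/f 5, against 8.07, 13.6 and 13.1 CPM in WT 2, 3 and 4. Gnmt had 2.22 and 6.28 CPM, against 1.78, 8.11 and 4.02 CPM. Amy1 had 3.47 and 3.59 CPM, against 3.97, 4.87 and 4.50 CPM. For example, Pnlip over Prss2 was 0.438 in tumour WT 6 and 0.0943 in tumour Alb-Cre Stat3f/f 5, against 0.662 to 1.01 in the other tumours. This comparison and this ratio were chosen after the 2 tumours were seen to be lowest and have no test. The 2 libraries held 33618 and 50485 acinar counts, and Try4, Ctrl, Pnlip and Cela1 had at least 338 each in both. Other genes had few: Amy1 had 25 and 28 counts, Gnmt 16 and 49, and Ctrc 9 and 5, so that counting error could change the side of the median on which such a gene was tallied.

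**Figure D4:**
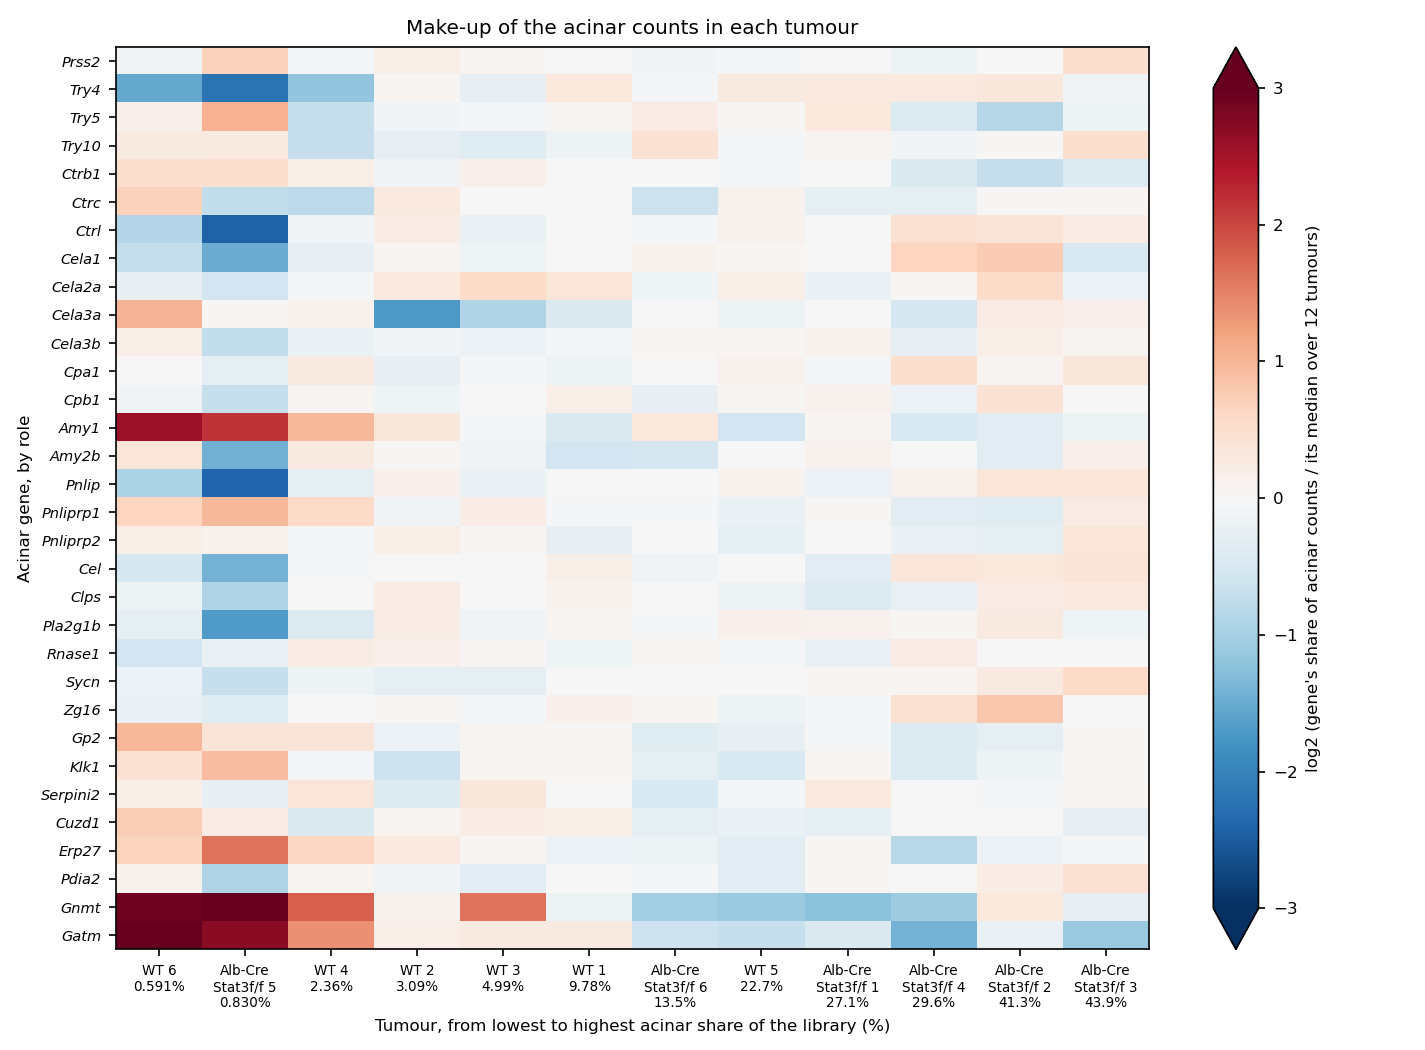
Colours give the log2 ratio of each gene's share of the acinar counts to its median over 12 tumours (columns from lowest to highest acinar share, rows by role; the scale ends at -3 and 3). The first columns, WT 6 and Alb-Cre Stat3f/f 5, are red for Gatm, Gnmt and Amy1 and blue for Try4, Ctrl, Pnlip and Cela1.

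Fixed pairs of enzymes did not separate the host genotypes. Mean log2 ratios of 12 pairs were compared by exact permutation over every relabelling of 6 against 6 tumours (two-sided, smallest possible p = 0.0022), which called 0 pairs, and 0 had an unadjusted p under 0.05. The smallest p was for Ctrb1 over Prss2, a ratio of single genes and not of all chymotrypsinogen to all trypsinogen transcripts. WT tumours had ratios of 2.89 to 5.33 and Alb-Cre Stat3f/f tumours of 1.88 to 3.76, a mean log2 difference of -0.44 ± 0.20 (SE; exact permutation p = 0.0628, adjusted p = 0.753 over the 12 pairs). Cpa1 over Cpb1 was 1.21 to 1.76 in the WT group and 1.22 to 2.43 in the other, a difference of 0.21 ± 0.17. The granule pair Sycn over Zg16 differed by 0.01 ± 0.18, with ratios of 0.622 to 1.34 over all 12 tumours. The exact permutation adjusted p of the 12 pairs ran from 0.753 to 0.996, with 6 differences above 0 and 6 below. These ratios do not depend on library scaling, and a p above the threshold does not show that they were equal.

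The pairs did show single tumours that stood apart. Colipase to lipase, Clps over Pnlip, was 0.432 to 0.667 in 10 tumours, 0.973 in tumour WT 6 and 1.56 in tumour Alb-Cre Stat3f/f 5. Pnliprp1 over Pnlip was 0.329 to 0.975 in 10 tumours, 1.66 in tumour WT 6 and 5.59 in tumour Alb-Cre Stat3f/f 5. In other words, the related lipase outnumbered pancreatic lipase in these tumours and not in the others. Try4 over Prss2 was 0.0588 in Alb-Cre Stat3f/f 5 and 0.164 to 0.591 elsewhere. Of the ratios added after the values were seen, Ctrl over Ctrb1 was 0.0547 in WT 6, 0.0184 in Alb-Cre Stat3f/f 5 and 0.108 to 0.296 in the rest. Amy1 over Amy2b was 0.225 in WT 6, 0.583 in Alb-Cre Stat3f/f 5 and 0.0316 to 0.0837 in the rest.

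**Figure D5:**
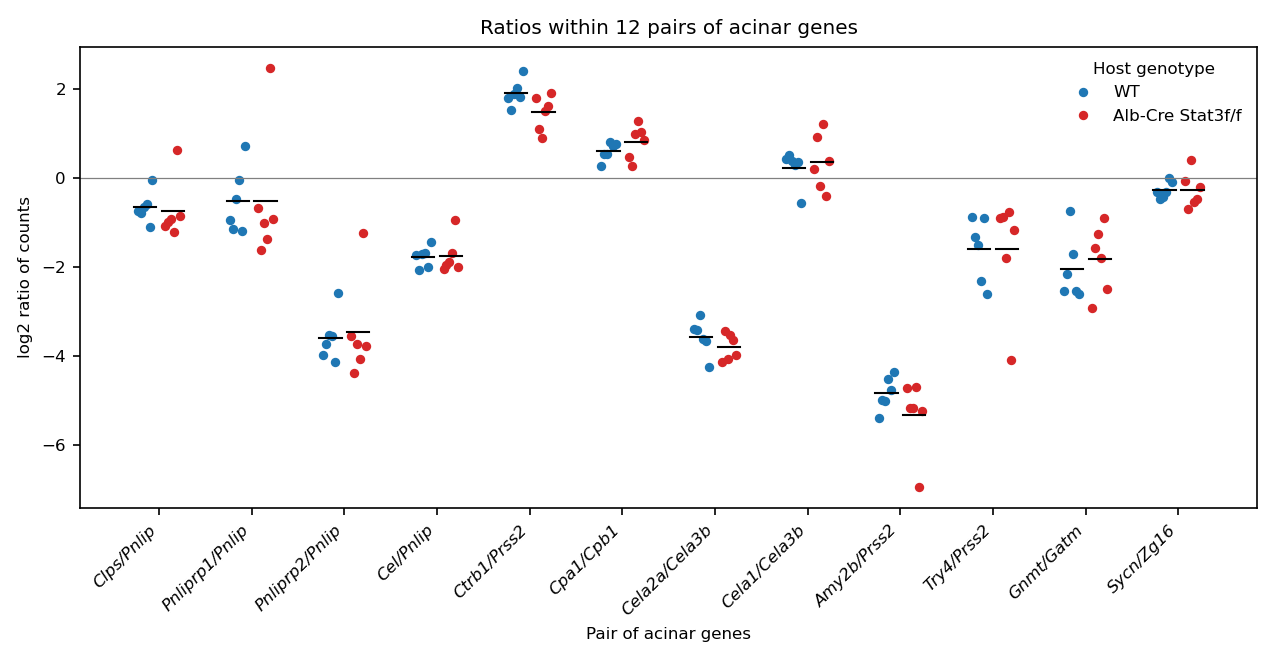
Points are the log2 ratio of counts in each tumour for 12 pairs of acinar genes, blue for WT and red for Alb-Cre Stat3f/f, with black bars at the mean of 6 tumours. The colours overlap in every pair, and single red points for Pnliprp1/Pnlip (2.48), Amy2b/Prss2 (-6.94) and Try4/Prss2 (-4.09) are Alb-Cre Stat3f/f 5.

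Further secreted products of the acinar cell had a median fold change like that of the 34, while 2 other acinar lists had smaller medians. Over all genes tested, edgeR called 2.98%, and 19.4% had an unadjusted p under 0.05. Of 22 further secreted acinar products, 10 were tested, with 0 called by edgeR and 7 at an unadjusted p under 0.05. Their log2 fold changes had a median of 2.43. They ran from 0.87 to 3.02, a wider range than the 1.68 to 2.86 of the acinar genes. The smallest p-values among them were those of Spink1, the trypsin inhibitor of the granule (2.54 ± 0.94, edgeR adjusted p = 0.178), and Tff2, a trefoil peptide (2.44 ± 0.91, edgeR adjusted p = 0.180). Of 10 transcription factors of the acinar programme, 0 were called and 5 had an unadjusted p under 0.05. Their median log2 fold change was 0.93. Bhlha15 (Mist1), which shapes the secretory apparatus, had 1.25, 3.81 and 11.6 CPM in WT and 2.18, 21.5 and 53.8 CPM in Alb-Cre Stat3f/f tumours (log2 fold change 2.34 ± 0.74, edgeR adjusted p = 0.119). Rbpjl, the PTF1 subunit, had 2.22, 6.18 and 25.0 CPM in WT and 1.54, 34.4 and 74.6 CPM in Alb-Cre Stat3f/f tumours (log2 fold change 2.14 ± 0.80, edgeR adjusted p = 0.178). Ptf1a was at 4.09 CPM or less in WT and up to 19.7 CPM in Alb-Cre Stat3f/f tumours. Of 18 genes of stimulus-secretion coupling and exocytosis, with a median log2 fold change of 0.19, 1 was higher and 1 lower. Among these 18, 6 had an unadjusted p under 0.05. The higher one, Sytl1, a synaptotagmin-like Rab27 effector, had 0.139, 1.15 and 2.29 CPM in WT and 1.03, 5.23 and 15.4 CPM in Alb-Cre Stat3f/f tumours (log2 fold change 2.47 ± 0.57, edgeR adjusted p = 0.0248). The lower one, Itpr3, a calcium channel of the apical endoplasmic reticulum that many other cells also express, had 117 CPM as the WT median and 85.2 CPM as that of Alb-Cre Stat3f/f tumours (log2 fold change -0.40 ± 0.10, edgeR adjusted p = 0.0353). Sytl1 and Itpr3 were the only 2 called among the 38 genes tested from the secreted, transcription factor and exocytosis lists together. Leaving out single tumours took this count over the 38 genes from 0 to 5. It was 0 on leaving out WT 1, 3 or 4 or Alb-Cre Stat3f/f 1, 2 or 3. It was 1 on leaving out WT 6 or Alb-Cre Stat3f/f 6, and 5 on leaving out Alb-Cre Stat3f/f 5.

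The genes whose pattern was most like the summed acinar level, by the SD of their log2 ratio to it over the 12 tumours, were themselves mostly known pancreatic products. Among the 10 most alike of 10559 candidates were 2210010C04Rik (SD 0.31), Tmed6 (0.42), Hamp2 (0.49), Reg1 (0.49), Gal (0.51), Aqp12 (0.59), Reg2 (0.61), Tff2 (0.62) and Reg3d (0.67). The gene 2210010C04Rik lies in the trypsinogen gene region at chr6:41030268-41035509 (GENCODE M21, GRCm38, minus strand) and had 325, 2806 and 21853 CPM in WT and 324, 32715 and 87919 CPM in Alb-Cre Stat3f/f tumours. Its counts were 0.988 to 1.66 times those of Prss2 in 11 tumours and 0.425 times in Alb-Cre Stat3f/f 5. None of its 50-base end stretches recurs in another gene.

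Markers of other cells moved with host genotype to differing degrees, and their part in the acinar values was not tested. Over all genes tested, edgeR called 2.23% higher and 0.747% lower, and 19.4% had an unadjusted p under 0.05. Of 8 macrophage markers 6 were higher in Alb-Cre Stat3f/f tumours, with summed levels of 1031 to 1570 CPM in WT and 1548 to 2407 CPM in Alb-Cre Stat3f/f tumours. Of 8 fibroblast markers 1 was higher (Dcn; summed 3323 to 6259 and 4395 to 7591 CPM), and of 7 T cell markers tested 1 (Cd247; summed 14.3 to 43.7 and 42.9 to 84.8 CPM). An unadjusted edgeR p under 0.05 was found for 8 of the 8 macrophage, 3 of the 8 fibroblast and 6 of the 7 T cell markers. None of 9 islet markers was called (1 at an unadjusted p under 0.05). Their summed level was 38.9 to 1061 CPM in WT and 73.6 to 1310 CPM in Alb-Cre Stat3f/f tumours. The islet level was highest in WT 5 and lowest in WT 4 among WT tumours, and highest in tumour 2 and lowest in tumour 5 of the Alb-Cre Stat3f/f group. The same edgeR fit called 0 of 12 hepatocyte markers (32.8 to 438 CPM summed over all tumours), 0 of 4 intestinal (Lgals4 at 0 counts) and 0 of 5 adipocyte markers, with 0, 1 and 0 of them at an unadjusted p under 0.05.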

How the data were processed

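Raw counts per gene symbol were deposited by the authors; the totals differ between libraries. STAR and mm10 are named in the submitters' processing notes. Not given in the sources used here are versions, counting tool, annotation, strand setting and treatment of reads shared between paralogs. RNA was isolated with the RNeasy FFPE kit and sequenced as QuantSeq 3' mRNA-Seq FWD libraries, per the labels' protocols. No molecular identifiers are stated, so intervals and the limit at 0 counts cover counting error only.

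Of 24982 table entries, 26 headed by a date number in place of a symbol (0.0690 to 0.166% of counts) were left out. In R 4.3.3, edgeR 4.0.16 kept 12856 genes with filterByExpr (minimum count 10, minimum total 15, proportion 0.7), scaled by TMM (factors 0.578 to 1.29), and fitted genotype alone over all 12 tumours with the robust two-sided quasi-likelihood test. Adjustment was by Benjamini-Hochberg over all genes, with 0.05 as threshold. CPM values are TMM-scaled, and shares use library totals. Pair ratios used counts plus 0.5. Alternatives were DESeq2 1.42.0, other scalings and filters, a replicate block and leaving out each tumour. Scripts were tested on simulated data. No libraries were near copies (chi-square per gene of at least 11.8 over pairs). The rule for named genes was every acinar gene, the 10 most alike others, and, per marker list, those called or the 2 with the smallest p. This rule also named 1 gene that is not reported here. The acinar genes, lists, pairs and tests were chosen with earlier results of these data known.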

Additional observations from a re-analysis of the deposited data

Results flagged for a closer look

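Each genotype's 6 values were examined for the pair ratios, the role shares and the level of each acinar gene. A value was singled out when its gap to the nearest other tumour divided by the group's range exceeded Dixon's critical value for 6 samples. Of 110 groups examined 19 were singled out, where chance gives about 1 in 20 (5.5 groups), and the groups are not independent.

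Among the ratios, 6 of the 7 belonged to Alb-Cre Stat3f/f 5. Its log2 ratio was the highest of its genotype for Clps/Pnlip (0.64, others -1.21 to -0.84), Pnliprp1/Pnlip (2.48, others -1.60 to -0.66), Pnliprp2/Pnlip (-1.23, others -4.37 to -3.55) and Cel/Pnlip (-0.94, others -2.04 to -1.68). It was the lowest for Amy2b/Prss2 (-6.94, others -5.24 to -4.69) and Try4/Prss2 (-4.09, others -1.80 to -0.76). The other was WT 6, lowest for Cela1/Cela3b (-0.55, others 0.31 to 0.52). Gnmt and Gatm together held 0.345% of the acinar counts in WT 6 (others 0.0199 to 0.0926%) and 0.277% in Alb-Cre Stat3f/f 5 (others 0.0133 to 0.0313%).

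The log2 CPM of 10 genes was set apart at the low end in Alb-Cre Stat3f/f 5: Ctrb1 at 11.20, Rnase1 at 9.07, Cela3b at 7.91, Cela1 at 7.52, Clps at 6.81, Pnlip at 6.18, Try4 at 5.50, Ctrl at 5.45, Cel at 5.25 and Pla2g1b at 3.43. The other 5 tumours lay between 14.98 and 17.17 for Ctrb1, 12.83 and 15.79 for Pnlip, and 12.08 and 14.98 for Ctrl.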

How the results depend on the processing

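The acinar fold changes were above 0 in each alternative run, with medians of 1.90 to 3.42. The highest was without WT 5, and the lowest was with library totals alone, which moved the median of all genes to -0.41. Called acinar genes were 0 in each alternative except DESeq2 (2: Amy1 and Gnmt) and leaving out 1 tumour (0 to 1; Amy1 without WT 5 or Alb-Cre Stat3f/f 5). All called genes numbered 383, against 906 by DESeq2, 165 with library totals and 178 to 693 with 1 tumour left out (among WT tumours 244, 214, 245 and 220 on leaving out 1, 3, 4 and 6; among Alb-Cre Stat3f/f tumours 178, 238, 603 and 693 on leaving out 1, 2, 4 and 5). The 2 called among the other acinar genes became 8 by DESeq2, 1 with library totals, 1 with at least 10 CPM required in 6 tumours, and 0 to 5 with 1 tumour left out.

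The labels do not say whether the title numbers pair the tumours. Same-numbered tumours correlated at -0.51 to 0.13, and 0 of 6 WT tumours correlated best with its own number. Correlations over 6 pairs cannot exclude a weak pairing. With the replicate block the acinar median was 3.29, and 189 genes, 0 acinar genes and 0 other acinar genes were called.

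The difference in share was 15.2 to 23.8 percentage points with 1 tumour left out. No pair was called in any alternative run. Differences near 0 changed sign with 1 tumour left out: Try4/Prss2 -0.21 to 0.49, Sycn/Zg16 -0.13 to 0.10, Cel/Pnlip -0.15 to 0.079, Pnliprp1/Pnlip -0.60 to 0.24, Clps/Pnlip -0.36 to 0.040, Cela1/Cela3b -0.051 to 0.27 and Pnliprp2/Pnlip -0.32 to 0.33. The cause was not tested.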
